A study of Mus musculus with 4 samples.

Results

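Genes of fatty acid uptake, binding and activation were described in liver RNA-seq libraries of mice under dietary CLA (conjugated linoleic acid), the PPARα antagonist GW6471, or both. The genes were chosen by name, as 10 members: Cd36, Slc27a1 and Slc27a4 for uptake, Fabp1, Fabp4 and Fabp5 for binding, and Acsl1, Acsl3, Acsl4 and Acsl5 for activation. The expression table held 9 of the 10 members among its 15500 genes, and Fabp1 had no row. Of the 9, 8 had a mean level of at least 1 FPKM and Cd36 lay near 0. FPKM is the read count of a transcript divided by its length and by the depth of the library, so levels of different genes can be compared. In mm9, Slc27a1 lies on chromosome 8 (chr8:74092826-74110607), Slc27a4 on chromosome 2 (chr2:29658154-29673042), and Fabp5 and Fabp4 near each other on chromosome 3 (chr3:10012548-10016607 and chr3:10204347-10208576). Acsl1 lies on chromosome 8 (chr8:47556395-47621405), Acsl3 on chromosome 1 (chr1:78654400-78703562), Acsl4 on the X chromosome (chrX:138752536-138825078) and Acsl5 on chromosome 19 (chr19:55327859-55371117).

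Long-chain fatty acids enter cells with the help of the scavenger receptor CD36 and of the fatty acid transport proteins of the Slc27a family. Inside the cell they travel on small fatty acid binding proteins (FABPs), and acyl-CoA synthetases of the ACSL family couple them to coenzyme A, the step that commits them to oxidation or to storage and membrane lipids. In liver, FABP1 is the dominant binding protein and ACSL1 a major synthetase, and many genes of this route are textbook targets of the nuclear receptor PPARα.

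The 4 libraries came from male wild-type Kunming mice, bought at 5 weeks of age and acclimated for 1 week. The Vehicle group received chow with 1.5% (w/w) linoleic acid, and the CLA group received 1.5% CLA, a mixture of isomers in equal amounts, in its place. The GW6471 group received the linoleic acid diet and the CLA+GW6471 group the CLA diet, both with daily intraperitoneal injections of 20 mg/kg GW6471. Feeding lasted 28 days, livers were taken at zeitgeber time 8, and vehicle injections were given to controls where appropriate. Each group comprised 6 mice by protocol but is represented by 1 library, so there is no replicate error, no difference between conditions was tested, and every ratio describes these libraries. The sources do not say whether RNA of several mice was pooled. The study's methods describe the Vehicle and CLA diets but no mice given GW6471. Which libraries belong to the GW6471 groups rests on the sample labels, which name the treatment without dose or diet. The depth, estimated from the steps between low values, was 18848000 to 19293000 reads per library. The 95% counting intervals derived from it cover counting error only.

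The tissue label was checked against marker genes. Of 10 hepatocyte markers 9 were listed and 5 had a mean of at least 1 FPKM. Alb (albumin) stood at 620 to 1322 FPKM and Trf (transferrin) at 220 to 351 FPKM. Apoa1 was at 0.37 to 2.15 FPKM, and Ttr, Fga and Cyp2e1, which are abundant in hepatocytes, did not exceed 0.11 FPKM in any library. The summed level of the 9 hepatocyte markers was 1004 FPKM in Vehicle, 1864 in CLA and 1522 in GW6471, and 930 with both treatments. Of 7 markers of simple epithelium and bile duct, 5 had a mean of at least 1 FPKM. They were led by the keratins Krt18, at 1171 to 1359 FPKM, and Krt8, at 403 to 492 FPKM. Krt19 and Cdh1 did not exceed 0.28 and 0.13 FPKM. Of 6 listed markers of stellate cells or fibroblasts, Dcn alone had such a mean, at 1148 to 1506 FPKM, and the collagen genes Col1a1 and Col3a1 did not exceed 0.33 and 0.01 FPKM. None of the listed endothelial or skeletal muscle markers had a mean of 1 FPKM. The gene with the highest mean in the table was Sprr1a, a protein of the cornified envelope of stratified epithelia. It stood at 15810 to 26116 FPKM and is named here after its values were seen. Of 7 listed stratified epithelium markers, 2 had a mean of at least 1 FPKM, Krt5 at 2.79 to 4.29 and Sfn at 1.77 to 2.3 FPKM. The other 5 (Krt14, Krt15, Krt17, Trp63 and Dsg3) did not exceed 0.1 FPKM. The markers thus met the liver label only in part, and whether the label is right cannot be told from these data, so liver is used below as the label gives it. In bulk RNA, fewer cells of a type and less RNA per cell cannot be told apart.

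Among the uptake genes, Cd36, the membrane receptor for long-chain fatty acids, was listed at 0.00 FPKM in Vehicle, 0.01 in CLA and 0.04 in GW6471, and 0.01 with both treatments. These values correspond to at most 3 estimated reads, and 3 reads are worth about 0.0446 FPKM, so no difference was detectable at this depth and no ratio is given. Slc27a1 encodes the transporter FATP1. Its level was 4.34 FPKM in Vehicle, 6.30 in CLA and 5.07 in GW6471, and 4.65 with both treatments. It was highest in the CLA library, and the other libraries differed from their neighbours in this order by less than the counting interval. CLA against Vehicle gave a log2 ratio of 0.53 for Slc27a1 (95% counting interval 0.29 to 0.78). All log2 ratios were taken after adding 0.1 FPKM to both levels, which makes the change of low genes appear smaller.

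Slc27a4 encodes FATP4, a transporter with acyl-CoA synthetase activity. Its level was 8.13 FPKM in Vehicle, 6.56 in CLA and 7.47 in GW6471, and 8.98 with both treatments. The CLA library was the lowest for Slc27a4, where it was the highest for Slc27a1. For CLA against Vehicle, the log2 ratio of Slc27a4 was -0.31 (-0.48 to -0.14). For GW6471 against Vehicle it was within counting error, at -0.12 (-0.29 to 0.04). Slc27a4 made up 62.7% of the summed FPKM of the 6 Slc27a genes in Vehicle and 48.7% in CLA, and the share of Slc27a1 was 33.5% and 46.8%. The liver transporters Slc27a2 and Slc27a5, the latter also a bile acid CoA ligase, stayed at or below 0.24 and 0.02 FPKM.

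Among the binding proteins, Fabp4, best known from adipocytes and macrophages, was at 6.97 FPKM in Vehicle, 7.76 in CLA and 5.68 in GW6471, and 4.47 with both treatments. The estimated reads behind these values, 55 to 93 per library, were the fewest of the 8 expressed members. No pair of neighbours in the order of the libraries was separated beyond counting error, but the ends of the order were, with a log2 ratio of -0.78 (-1.30 to -0.29) for CLA+GW6471 against CLA. Adipoq, an adipocyte marker, reached at most 0.08 FPKM, 4 of 7 adipocyte markers were listed, and their summed level ran from 9.82 to 11.4 FPKM. Almost all of it was Cidec and Lipe, which differed in opposite directions. Cidec, a lipid droplet protein, was at 5.19 FPKM in Vehicle, 1.69 in CLA and 2.32 in GW6471, and 4.85 with both treatments. Lipe, the hormone-sensitive lipase, was at 4.59 FPKM in Vehicle, 8.45 in CLA and 8.95 in GW6471, and 5.76 with both treatments. Of 8 macrophage marker symbols, among which Emr1 and Adgre1 name the same gene, 5 were listed, with a summed level of 44.5 to 64.6 FPKM. Cd68 and Cd14 accounted for most of it. Cd14 stood in the same order of libraries as Fabp4, and Cd68 did not, being lowest in Vehicle at 23.4 FPKM and highest in CLA at 35.6 FPKM. Emr1 (F4/80) did not exceed 0.09 FPKM. The part of such cells in the Fabp4 values was not tested.

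Fabp5, the epidermal-type binding protein, was the most abundant of the FABPs with a row, and Fabp1 had none. Its level was 73.0 FPKM in Vehicle, 71.0 in CLA and 55.5 in GW6471, and 67.8 with both treatments. The GW6471 library stood below the others, which lay within counting error of their neighbours. The log2 ratio of GW6471 to Vehicle was -0.40 (-0.51 to -0.28). Fabp5 made up 90.02% to 93.81% of the summed FPKM of Fabp2, Fabp3, Fabp4 and Fabp5 in every library. Its transcript has 5 further matches of at least 90% identity over at least 50% of its length in the mm9 genome, so reads may have been divided among copies and its level is uncertain. The other members had no such match. Fabp2 and Fabp3, the intestinal and heart types, did not exceed 0.31 FPKM.

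**Figure D1:**
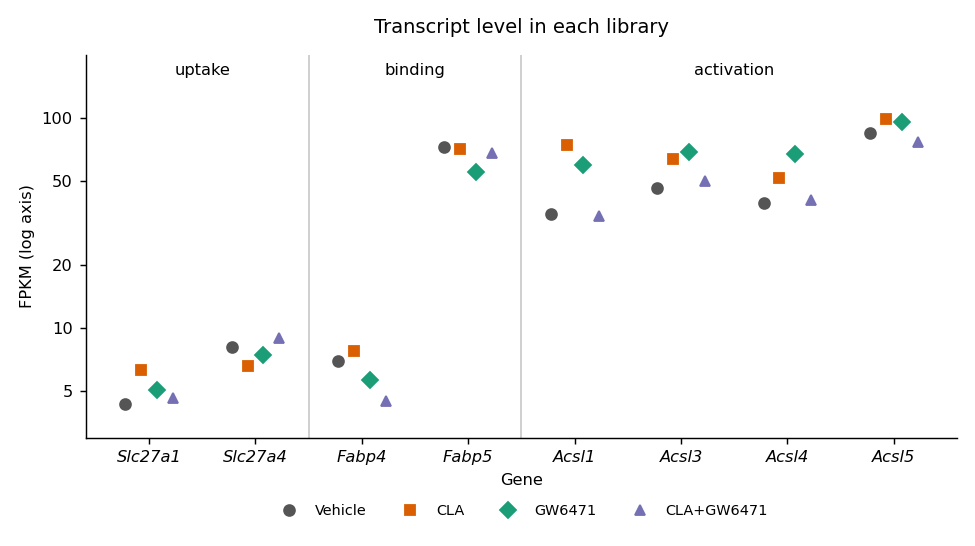
FPKM (log axis) of the 8 members with a mean of at least 1 FPKM, 1 point per library, grouped by role; Cd36, with at most 0.04 FPKM, is not drawn. The 4 Acsl genes are higher in the CLA and GW6471 libraries than in the other libraries. Slc27a4 is lower in the CLA and GW6471 libraries, the latter within counting error of Vehicle.

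Among the listed members, the activation genes were as a group the most abundant, with levels from 34.0 to 98.8 FPKM. Acsl1, which in liver serves oxidation as well as triglyceride synthesis, had the widest range of all listed members. Its level was 34.9 FPKM in Vehicle, 74.1 in CLA and 59.8 in GW6471, and 34.0 with both treatments. The CLA and GW6471 libraries were both high, and Vehicle and CLA+GW6471 differed by less than the counting interval. The log2 ratio was 1.08 (1.02 to 1.15) for CLA against Vehicle and 0.78 (0.71 to 0.85) for GW6471 against Vehicle. It was -1.12 (-1.19 to -1.06) for CLA+GW6471 against CLA and -0.81 (-0.89 to -0.74) for CLA+GW6471 against GW6471. Of the 5 hepatocyte markers with a mean of at least 1 FPKM, Alb, which makes up most of their sum, and Trf, Fgb and Apob stood in the same order of libraries as Acsl1. The fifth, the transcription factor Hnf4a, was lower in both single-treatment libraries, at 54.5 FPKM in Vehicle, 47.3 in CLA and 47.2 in GW6471, and 51.8 with both treatments. The part of hepatocytes in the Acsl1 values was not tested.

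Acsl3, the synthetase of the endoplasmic reticulum and of growing lipid droplets, was at 46.6 FPKM in Vehicle, 63.5 in CLA and 69.0 in GW6471, and 50.04 with both treatments. Each step in the order of its levels lay beyond counting error, and GW6471 was highest, with a log2 ratio to Vehicle of 0.57 (0.50 to 0.64). Acsl4, which prefers arachidonic acid and other polyunsaturated fatty acids, was at 39.3 FPKM in Vehicle, 51.6 in CLA and 67.3 in GW6471, and 40.8 with both treatments. Its order was that of Acsl3, with Vehicle and CLA+GW6471 within counting error of each other. The log2 ratio of Acsl4 was 0.39 (0.33 to 0.45) for CLA against Vehicle and 0.77 (0.72 to 0.83) for GW6471 against Vehicle.

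Acsl5, found on mitochondria and endoplasmic reticulum, was the most abundant listed member and, of the 8 expressed, the one with the narrowest range. Its level was 85.0 FPKM in Vehicle, 98.8 in CLA and 95.5 in GW6471, and 76.8 with both treatments. The CLA and GW6471 libraries did not differ beyond counting error and were the highest. The log2 ratio of Acsl5 to Vehicle was 0.22 (0.16 to 0.27) in CLA and 0.17 (0.11 to 0.22) in GW6471.

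The sum of the Acsl transcripts, Acsl6 included, was 206 FPKM in Vehicle, 288 in CLA and 292 in GW6471, and 202 with both treatments. The makeup of this sum differed between CLA and GW6471, whose totals were similar. Acsl1 contributed 25.7% in CLA and 20.5% in GW6471, against 17.0% in Vehicle and 16.9% in CLA+GW6471. Acsl4 contributed 17.9% in CLA and 23.1% in GW6471. Acsl5 was the largest part in every library, between 32.7% and 41.3%. The brain form Acsl6 did not exceed 0.06 FPKM.

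**Figure D2:**
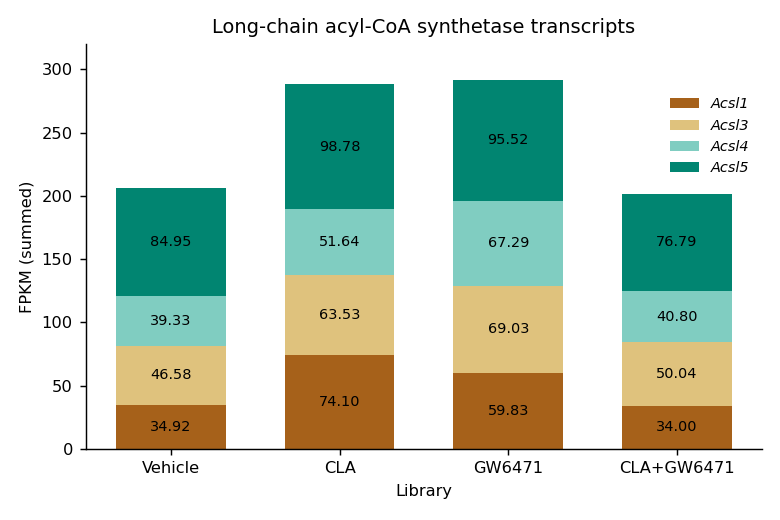
Stacked FPKM of the 4 Acsl members (vertical axis, from 0) in each library (horizontal axis), with the FPKM of each gene written in its bar. The CLA and GW6471 bars reach 288 and 292 FPKM, with more Acsl1 in the first and more Acsl4 in the second.

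The promoters of the Acsl genes are shown because this family held the most abundant listed member and the listed member with the widest range. RefSeq (GRCm38.p6) gave start-site windows for 8 of the 10 members, and none for Fabp4 and Fabp5. The 250 bases before each start were placed in mm9, the build of the study, by exact match, and every window had 1 match. Capitals mark the GC box GGGCGG and the CCAAT box (CCAAT), on either strand. The first Acsl1 window (chr8:47556141-47556390, plus strand) and those of Acsl3 (chr1:78654150-78654399, plus strand), Acsl4 (chrX:138825079-138825328, minus strand) and Acsl5 (chr19:55327609-55327858, plus strand) lay outside annotated genes, directly upstream of the annotated start or, for Acsl1, 5 bases from it. The second Acsl1 window (chr8:47576070-47576319, plus strand) lay inside the gene, in sequence with no annotated exon, before a later start.

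Acsl1, first start: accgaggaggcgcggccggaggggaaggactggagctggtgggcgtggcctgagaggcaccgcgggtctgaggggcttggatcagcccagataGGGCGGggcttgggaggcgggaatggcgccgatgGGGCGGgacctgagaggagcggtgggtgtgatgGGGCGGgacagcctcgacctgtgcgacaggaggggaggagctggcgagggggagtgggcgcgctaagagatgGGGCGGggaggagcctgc
Acsl1, second start: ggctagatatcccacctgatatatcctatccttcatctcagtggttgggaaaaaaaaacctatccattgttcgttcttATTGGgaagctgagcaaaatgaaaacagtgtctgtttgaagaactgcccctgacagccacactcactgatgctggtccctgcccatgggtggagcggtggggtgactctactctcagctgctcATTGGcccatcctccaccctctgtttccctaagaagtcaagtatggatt
Acsl3: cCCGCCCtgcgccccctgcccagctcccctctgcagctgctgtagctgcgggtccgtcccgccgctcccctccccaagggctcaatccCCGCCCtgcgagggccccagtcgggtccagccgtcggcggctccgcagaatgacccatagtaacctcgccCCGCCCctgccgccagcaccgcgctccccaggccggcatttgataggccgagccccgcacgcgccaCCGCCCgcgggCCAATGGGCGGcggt
Acsl4: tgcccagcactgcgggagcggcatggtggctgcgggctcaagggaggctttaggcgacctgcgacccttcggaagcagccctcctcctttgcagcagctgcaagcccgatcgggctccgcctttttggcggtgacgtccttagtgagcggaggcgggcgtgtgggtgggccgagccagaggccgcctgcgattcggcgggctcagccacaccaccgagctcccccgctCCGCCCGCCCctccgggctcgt
Acsl5: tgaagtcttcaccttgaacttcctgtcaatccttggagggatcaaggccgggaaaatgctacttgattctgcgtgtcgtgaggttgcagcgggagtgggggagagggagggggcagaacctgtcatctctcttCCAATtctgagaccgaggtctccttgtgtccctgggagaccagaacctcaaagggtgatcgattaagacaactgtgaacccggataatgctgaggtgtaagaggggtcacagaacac

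The GC box occurred 4 times in the first Acsl1 window, 5 times in Acsl3 and 2 times, overlapping, in Acsl4, and in neither the second Acsl1 window nor Acsl5. Over all 32851 RefSeq windows of this length, 32.7% held it. The CCAAT box, present in 33.8% of all windows, was found in the second Acsl1 window, in Acsl3 and in Acsl5. G and C made up 72.0%, 75.6% and 70.8% of the bases in the first Acsl1, Acsl3 and Acsl4 windows, against 48.4% in the second Acsl1 window and 52.8% in Acsl5. The letters of the nuclear receptor core motif AGGTCA (14% of all windows), of its direct repeat AGGTCANAGGTCA (0.0335%), of the E-box CACGTG (6.02%) and of the TATA box TATAAA (12.4%) were in none of the Acsl windows. Such matches are a description of these letters, and binding was not measured here. The core motif was found in the windows of Fabp1 and Cd36, the members with no row and with values near 0, and the E-box in 1 of 3 windows of Slc27a1.

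The first comparison set the CLA diet against the linoleic acid diet. In CLA against Vehicle, 1 of the 8 expressed members, Acsl1, was higher by at least 1.5-fold, where 7.3% of the 10355 genes with a mean of at least 1 FPKM were. No member was lower by this limit, against 4.95% of all genes. The median log2 ratio of the 8 members was 0.30, beside -0.0071 over all genes. Beyond their counting intervals, 5 members were higher and 1, Slc27a4, was lower. The share of all genes beyond their own intervals was not computed, so such counts describe the members only.

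The effect of GW6471 on the linoleic acid diet was the subject of the second comparison. In GW6471 against Vehicle, Acsl1 and Acsl4 were higher by at least 1.5-fold, 2 of 8 members where 3.28% of all genes were. None was lower, against 2.1% of all genes. With the FPKM sums made equal between libraries, these background shares became 3.87% and 1.57%, and Acsl3 joined the higher members. The median of the members was 0.19, beside -0.0041 over all genes. Fabp5 was the member lower beyond its counting interval, and 4 members, all Acsl genes, were higher. The share of all genes by this measure was not computed.

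The addition of GW6471 to CLA was then compared with CLA alone. In CLA+GW6471 against CLA, Acsl1 and Fabp4 were lower by at least 1.5-fold, 2 of 8 members where 9.15% of all genes were. No member was higher, against 6.84% of all genes. The median log2 ratio was -0.35, beside 0.0090 over all genes. Slc27a4 was higher beyond its counting interval and 6 members were lower, with no share of all genes computed for this measure. The CLA library also serves the comparison with Vehicle, and a high value there enters both.

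Under GW6471, CLA+GW6471 was compared with GW6471 alone. Acsl1 and Acsl4 were lower by at least 1.5-fold, 2 of 8 members where 3.88% of all genes were, and no member was higher, against 2.81%. With equal FPKM sums the background was 5.29% lower and 1.92% higher. The median of the members was -0.33, beside 0.0041 over all genes. Beyond their counting intervals, the 4 Acsl genes were lower, and Fabp5 and Slc27a4 were higher, with log2 ratios of 0.29 (0.17 to 0.41) and 0.26 (0.10 to 0.43). How many of all genes lay beyond theirs was not computed.

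The combination was also set directly against Vehicle, a comparison added after the data were seen. In CLA+GW6471 against Vehicle, Fabp4 was lower by at least 1.5-fold, 1 of 8 members where 0.628% of all genes were, with a log2 ratio of -0.63 (-1.16 to -0.14). With a pseudocount of 1 it no longer passed the limit. No member was higher, against 0.512% of all genes. The median of the members was 0.0072. Beyond their counting intervals, for which no share of all genes was computed, Acsl3 was higher and Fabp4 and Acsl5 were lower. For the other 5 members, Acsl1 and Acsl4 among them, the difference lay within the interval.

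**Figure D3:**
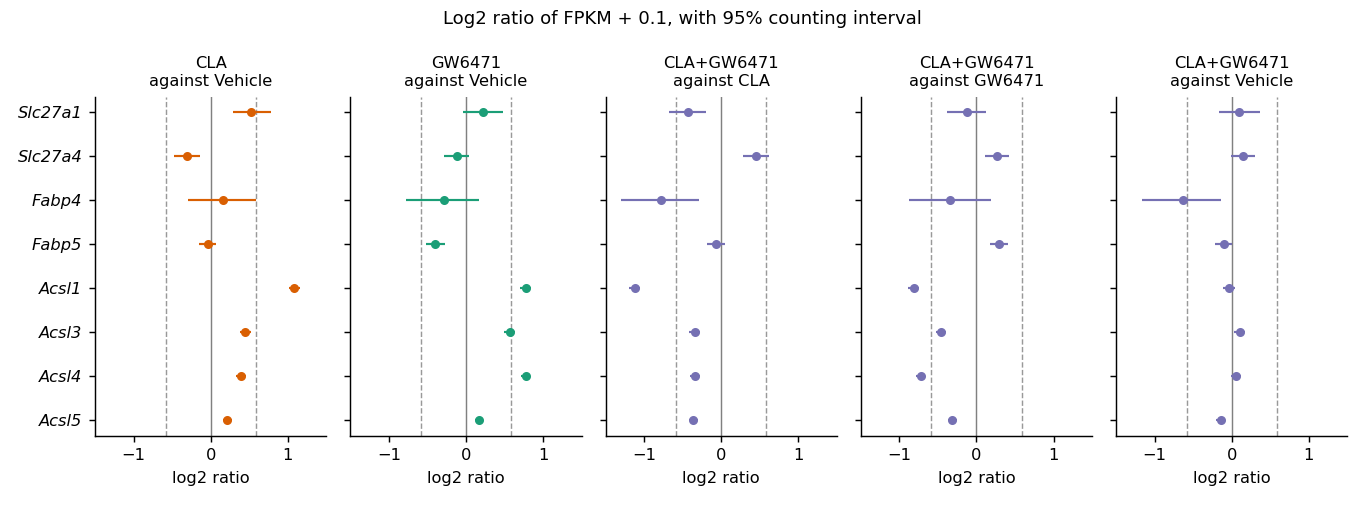
Log2 ratio of FPKM + 0.1 (horizontal axes) of the 8 expressed members in each of 5 comparisons; points are ratios, bars are 95% counting intervals and dashed lines mark 1.5-fold. Acsl1 lies beyond the lines in the first 4 panels, at 1.08, 0.78, -1.12 and -0.81, and near 0 in the last.

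The ratio of CLA with GW6471 and that without share no library, and were set side by side for each member. For Acsl1 the log2 ratio was 1.08 without GW6471 and -0.81 with it. Acsl1 was the member that was higher by at least 1.5-fold in the first and lower by this limit in the second, as were 2.98% of all genes. For Acsl4 the values were 0.39 and -0.72, and for Acsl3 0.45 and -0.46. Slc27a4 ran the other way, with -0.31 and 0.26. By level, 5 of the 8 members (Slc27a1 and the 4 Acsl genes) had both single-treatment libraries above both Vehicle and CLA+GW6471, where 30.2% of all genes did. The same order was found in 4 of 6 expressed genes of a list of other transporters and lipoprotein receptors, 5 of 7 other binding proteins and 3 of 5 other synthetases, which are described below. Slc27a4 had both below, where 31.8% of all genes did, its GW6471 level being within counting error of Vehicle. Fabp4 and Fabp5 had neither order. These orders compare levels with no margin. For Slc27a1 the GW6471 level was within counting error of both Vehicle and CLA+GW6471. Over all genes, the smallest shares past 1.5-fold were those of CLA+GW6471 against Vehicle, given above. With 1 library per condition, a treatment and its library cannot be told apart.

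**Figure D4:**
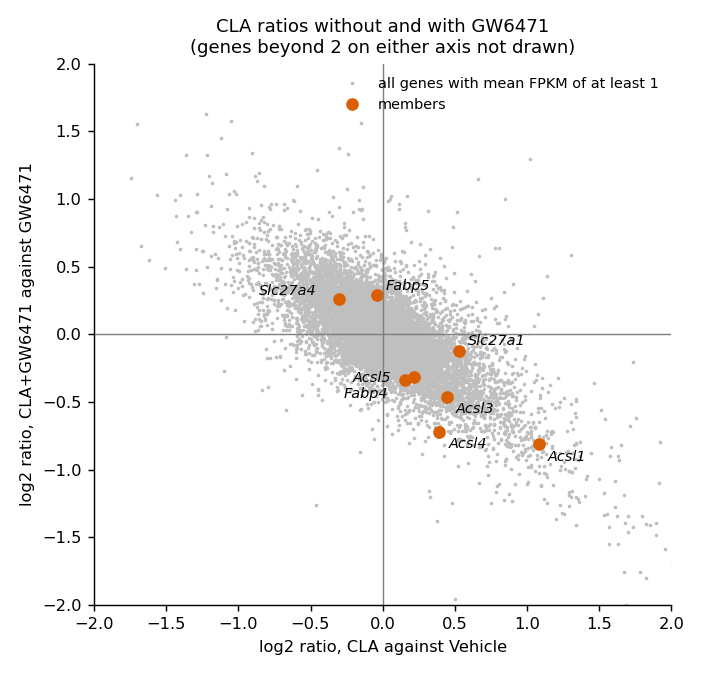
Log2 ratio of CLA against Vehicle (horizontal axis) and of CLA+GW6471 against GW6471 (vertical axis) for genes with a mean of at least 1 FPKM (grey) and the 8 expressed members (orange); 13 genes beyond 2 on either axis are not drawn. Acsl1 lies lowest and farthest right of the members, at 1.08 and -0.81.

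Other genes of the same route were described from lists drawn up by function, by their level and range. Of 14 further transporters and lipoprotein receptors, 13 were listed and 6 had a mean of at least 1 FPKM. None was higher or lower by 1.5-fold in CLA against Vehicle or in GW6471 against Vehicle. Vldlr, the receptor for very low density lipoprotein, was at 11.1 FPKM in Vehicle, 16.0 in CLA and 15.6 in GW6471, and 9.68 with both treatments, and was lower by this limit in CLA+GW6471 against both single treatments. Lrp1, a receptor for remnant lipoproteins, was at 8.27, 10.2, 10.8 and 7.31 FPKM in the same order of libraries. Got2, a mitochondrial aminotransferase also described as a fatty acid binding protein of the plasma membrane, stood at 146 to 167 FPKM, and the receptor Scarb1 at 47.0 to 49.5 FPKM.

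Of 16 further binding proteins, 10 were listed and 7 had a mean of at least 1 FPKM. Dbi, the acyl-CoA binding protein, was the most abundant of them, at 116 FPKM in Vehicle, 171 in CLA and 148 in GW6471, and 124 with both treatments. Scp2, a carrier of sterols and fatty acyl-CoA, was the 1 gene of this list higher by 1.5-fold in CLA against Vehicle, at 17.8 against 11.0 FPKM, and was at 13.9 and 10.4 FPKM in GW6471 and CLA+GW6471. It was also the 1 gene of the list lower by this limit in CLA+GW6471 against CLA. Acbd5, an acyl-CoA binding protein of the peroxisome, was at 10.4, 13.6, 13.4 and 10.3 FPKM in Vehicle, CLA, GW6471 and CLA+GW6471. Acbd6 was lower in the single-treatment libraries, at 91.5, 81.4, 82.1 and 100.3 FPKM. Acbd3, a Golgi protein of the family, ran from 58.3 to 74.8 FPKM.

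Of 14 further acyl-CoA synthetases, 12 were listed and 5 had a mean of at least 1 FPKM. Acss2, which makes cytosolic acetyl-CoA from acetate, had the widest range, with 2.38 FPKM in Vehicle, 7.08 in CLA and 5.64 in GW6471, and 2.45 with both treatments. Its log2 ratio to Vehicle was 1.53 in CLA and 1.21 in GW6471, larger than that of Acsl1 in both. Aacs, the acetoacetyl-CoA synthetase, was higher by 1.5-fold in CLA, at 28.1 against 18.4 FPKM, and stood at 18.6 in GW6471 and 16.4 in CLA+GW6471. Acsbg1, a synthetase for very long chains, went the other way, at 49.8 FPKM in Vehicle, 32.4 in CLA and 40.3 in GW6471, and 53.5 with both treatments. Acsf3, the malonyl-CoA synthetase, was at 2.47, 1.63, 1.17 and 2.29 FPKM and was lower by 1.5-fold in GW6471 against Vehicle. Acsf2 was at 26.5, 36.4, 33.7 and 25.8 FPKM. The medium-chain synthetases Acsm1, Acsm2 and Acsm3 did not exceed 0.10 FPKM.

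**Figure D5:**
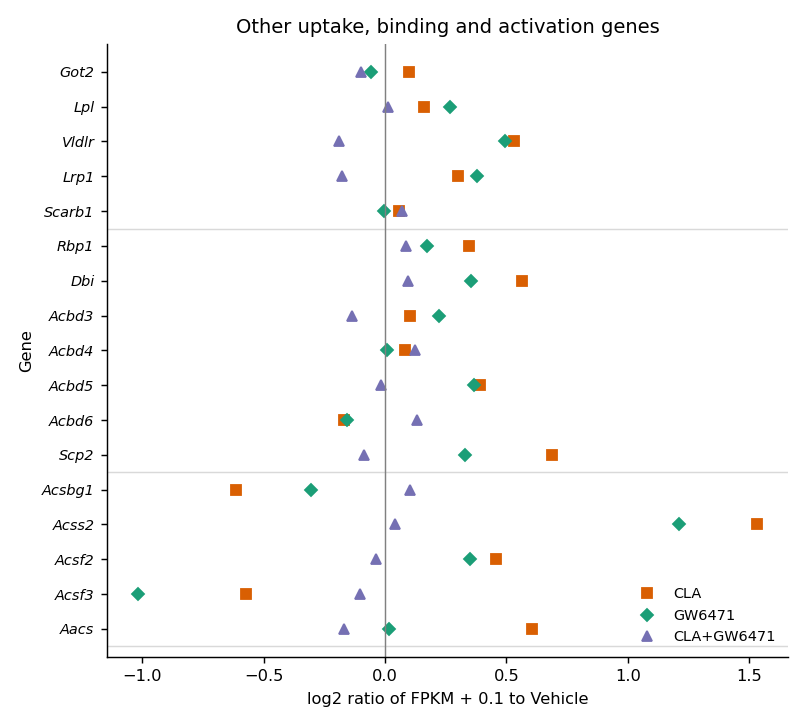
Log2 ratio of FPKM + 0.1 to Vehicle (horizontal axis) of other uptake, binding and activation genes with a mean of at least 1 FPKM (vertical axis, in 3 blocks, 1 gene not reported here left out), 1 point per treated library. Acss2 is farthest right, at 1.53 in CLA and 1.21 in GW6471, and no CLA+GW6471 point passes 1.5-fold.

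The genes whose levels followed a member most closely over the 4 libraries were found among 8196 other genes with a mean of at least 5 FPKM, by the largest absolute difference of centred log2 values. For Acsl1 the closest were Lbp, which encodes the lipopolysaccharide binding protein, with a difference of at most 0.010, Gpam, the first acyltransferase of triglyceride synthesis, with 0.032, and Sqrdl, a mitochondrial enzyme of sulfide oxidation, with 0.039. Gpam was at 6.86 FPKM in Vehicle, 14.3 in CLA and 11.4 in GW6471, and 6.47 with both treatments. For Acsl4 the closest were Rassf8 at 0.038, Fos at 0.056 and Calcrl at 0.094. For Fabp4 they were Cfi at 0.090, Asl at 0.10 and Zbtb8os at 0.11. With 4 values per gene, such likeness is a description of these libraries.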

How the data were processed

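Liver RNA of 4 conditions was sequenced, with 1 library each, and samples were grouped by their labels. According to the methods and the submitters' processing notes, reads were mapped to mm9 with BWA and Bowtie and quantified with Cufflinks (no versions stated). The table the authors deposited gives FPKM, to 2 decimals, for 15500 genes. Its header names no unit. FPKM was read from a supplementary sheet that names it for the Vehicle and CLA values, and taken to hold for the other columns. How these genes were selected is not stated.

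Ratios were computed on FPKM + 0.1, with no test. A gene was called when its mean FPKM was at least 1 and its ratio reached 1.5-fold. Depth was estimated from the steps of low values (FPKM times length in kilobases, between 0.02 and 0.5) of 603 genes under 1000 nt with 1 coding transcript in GENCODE vM1. The fit score, a mean cosine with 1 for a perfect fit, was 0.458 to 0.535. Counting intervals (95%, exact Clopper-Pearson) used these depths and the longest coding transcript. These intervals are approximate. Copies were sought with minimap2 2.31-r1302. Other steps ran in Python 3.11.15 (matplotlib 3.10.9, scipy 1.17.1, pandas 2.3.3, numpy 2.4.6) and were tested on simulated data.

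The members and lists were chosen with earlier results of these data known. Named genes were the members, the 3 highest and the 3 widest-ranging genes of each further list, and the 3 nearest in pattern to the 3 widest-ranging members, of which 1 gene of the further lists is not reported here. Of the marker lists, the values that bear on the members or on the tissue label were printed. The cell type list not described in the results, that of red blood cells, had 1 of 3 listed markers with a mean of at least 1 FPKM. Alternatives were other pseudocounts, scalings, filters and a 2-fold limit.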

Additional observations from a re-analysis of the deposited data

Results flagged for a closer look

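Acsl1 was singled out because its ratios for CLA ran in opposite directions without and with GW6471, both by at least 1.5-fold. The log2 ratio was 1.08 in CLA against Vehicle and -0.81 in CLA+GW6471 against GW6471. The difference was not tested, since each condition has 1 library.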

How the results depend on the processing

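No paired analysis was possible because each condition has 1 library, so the conditions share a single replicate number. Of 35 counts of members past the limit under an alternative, 30 stayed within 1.5 times the main count. The 2-fold limit left 0 members in GW6471 against Vehicle, 1 in CLA+GW6471 against CLA, 0 in CLA+GW6471 against GW6471 and 0 in CLA+GW6471 against Vehicle, as fewer genes pass a stricter limit. In the last comparison a pseudocount of 1 also gave 0. Of 160 log2 ratios of single members under another pseudocount or scaling, none changed sign and 158 stayed within their counting interval. The other 2, both with a common FPKM sum in CLA+GW6471 against GW6471, were Acsl4 at -0.79 and Acsl5 at -0.38. Over all genes, the shares higher and lower by the limit also moved by over 1.5 times in places. The 2-fold limit gave 1.79% and 0.744% in CLA against Vehicle (7.3% and 4.95% at 1.5-fold), 0.560% with 0.309% for GW6471 against Vehicle (3.28% and 2.1%), then 1.27% with 2.67% for CLA+GW6471 against CLA (6.84% and 9.15%), 0.357% and 0.802% in CLA+GW6471 against GW6471 (2.81% and 3.88%) and 0.164% and 0.135% in CLA+GW6471 against Vehicle (0.512% and 0.628%). A pseudocount of 1 gave 3.21% lower in CLA against Vehicle, 1.94% higher with 1.02% lower for GW6471 against Vehicle, 1.68% with 2.44% for CLA+GW6471 against GW6471 and 0.270% and 0.174% in CLA+GW6471 against Vehicle. A minimum mean of 5 FPKM gave 2.07% and 1.18%, 1.87% and 2.501%, and 0.232% and 0.195% in the last 3 of these, and no minimum gave 5.2% and 4.83%, 5.42% and 5.74%, and 3.21% and 3.25%. The alternatives for CLA+GW6471 against Vehicle were chosen after seeing the data. Depth limits Cd36, at 3 estimated reads or fewer, and Fabp4, at 55 to 93 reads, most.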
